A study of Mus musculus with 2 samples.

Results

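The 9 genes of the Notch receptors and their canonical ligands were followed through the tissues of the mouse trunk at embryonic days 9.5 and 11.5 (E9.5 and E11.5). They were found by symbol, each on 1 row of the 27998 genes that were counted, and comprise the 4 receptors Notch1, Notch2, Notch3 and Notch4 and the 5 ligands Dll1, Dll3, Dll4, Jag1 and Jag2. Single-cell RNA sequencing had been done on dissociated inter-limb somites, the paired blocks of mesoderm between the limb buds, of wild type C57BL/6 embryos at both ages, with 3 embryos pooled into 1 library per age. The labels name no transgene and no treatment for either group. The dissection also brought along cells of neighbouring tissues, and the pooling leaves no way to tell the embryos apart. With 1 library per stage there is no replicate, so no test between stages was made. A range in parentheses after a value is its exact 95% interval, which covers counting error only, and a difference between stages is a difference between these 2 libraries.

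Notch proteins are receptors at the cell surface that are switched on by ligands on a neighbouring cell. Binding of a Delta-like or Jagged ligand exposes the receptor to cutting by Adam10 and then by gamma-secretase, and the freed intracellular part joins Rbpj in the nucleus to turn on genes of the Hes and Hey families and Nrarp. Dll3 is a divergent ligand that does not activate receptors on neighbouring cells. In the embryo the pathway times the segmentation of the somites, keeps muscle and neural progenitors from differentiating all at once, and separates arteries from veins.

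In the GRCm38 (mm10) assembly with the GENCODE M21 annotation, the receptor genes lie at chr2:26457903-26516663, minus strand (Notch1), chr3:98013527-98150361, plus strand (Notch2), chr17:32120820-32166852, minus strand (Notch3) and chr17:34564268-34588503, plus strand (Notch4). The ligand genes lie at chr17:15367354-15376872, minus strand (Dll1), chr7:28293553-28302238, minus strand (Dll3), chr2:119325784-119335962, plus strand (Dll4), chr2:137081456-137116644, minus strand (Jag1) and chr12:112907819-112929776, minus strand (Jag2). The gene identifiers in the count tables were those of the annotation for all 9.

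Cells were assigned to a tissue by marker genes, none of them a Notch receptor or ligand. Of the 9851 E9.5 and 9595 E11.5 cells kept, 521 and 1232 were gated as muscle, 1870 and 1169 as sclerotome, 2049 and 169 as neural tube, 252 and 848 as neuron and 404 and 103 as endothelial. The libraries held 149368952 (E9.5) and 136655763 (E11.5) unique molecular identifiers (UMIs, tags that count each captured molecule once) in all. Median depth in these gates lay between 9555 and 16179.5 UMIs per cell. Levels are given as UMIs of a gene per 1000000 UMIs of the class (UPM), and are compared between classes for 1 gene at a time and not between genes. Red blood gated cells (124 and 133 cells, median 15674 and 17140 UMIs) served as a reference for background. At each stage 11 of them were called doublets. How much of their counts came from free RNA and how much from doublets was not tested. The lists of barcodes of the 2 libraries share 30 barcodes.

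The gates did not hold the same cells at both stages. In the muscle gate, Pax3 was found in 95.8% of E9.5 and 51.0% of E11.5 cells, and the differentiation gene Myog in 5.18% and 51.8%. In the neural tube gate, the ventral gene Olig2 was found in 29.8% of E9.5 and 1.18% of E11.5 cells, and the dorsal gene Pax7 in 5.37% and 17.2%. The summed level of the 9 neural tube markers was 894 UPM at E9.5 and 4219.9 UPM at E11.5. The sclerotome gate rested on Pax1, Pax9 and Foxc2 at both stages, while its marker Nkx3-2 was found in 0.642% and 1.80% of its cells. In the endothelial gate, Cdh5, which encodes the cadherin of vessel walls, was found in 75.7% and 73.8% of cells.

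The neuron gate went against its label in part. At E11.5, 454 of its 848 cells held fewer than 6 of the 10 neuron markers, and these had 32.2 UPM of the neuronal gene Stmn2 and 243 UPM of the mesenchymal collagen gene Col1a1. The other 394 cells had 2789 UPM of Stmn2 and 22.9 UPM of Col1a1. Levels of the receptors and ligands in neurons are therefore given for the whole gate and again for the cells with at least 6 markers. These cells (85 at E9.5, 394 at E11.5) are called core neurons here. This threshold was set after the levels had been seen.

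The levels are ranked among these 5 gates, which leave out 23 E9.5 cells gated by markers of the youngest somites. Of the receptors, Notch1 was highest in endothelial cells at E9.5 and in the neural tube at E11.5. The young somite cells held 516 (440.1 to 601) UPM, above all 5 gates. The Notch1 level at E9.5 was 94.4 (87.1 to 102) UPM in endothelial, 68.4 (65.5 to 71.4) in neural tube, 63.8 (55.4 to 73.1) in neuron, 49.4 (46.8 to 52.0) in sclerotome and 26.5 (23.3 to 30.021) UPM in muscle gated cells. At E11.5 neural tube cells held 265 (241 to 289.8) UPM and endothelial cells 138 (121 to 156), against 32.2 (28.98 to 35.7) in neurons, 22.1 (19.9 to 24.5) in sclerotome and 20.9 (19.0 to 22.9) UPM in muscle. Neighbours in this order differed beyond counting error except neural tube and neuron at E9.5 and sclerotome and muscle at E11.5. Red blood cells held 10.4 (6.61 to 15.7) and 2.04 (0.663 to 4.77) UPM.

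Notch2 had a narrower range, and its highest level among the 5 gates was in the sclerotome at both stages, under the 110.1 (76.7 to 153) UPM of the E9.5 young somite cells. It stood at 44.0 (41.6 to 46.5) UPM in E9.5 sclerotome, 37.3 (35.1 to 39.5) in neural tube, 35.9 (29.7 to 43.0) in neurons, 34.1 (30.5 to 38.1) in muscle and 18.03 (14.9 to 21.6) UPM in endothelial cells. At E11.5 the levels were 86.0 (81.5 to 90.7) UPM in sclerotome, 67.7 (64.3 to 71.3) in muscle, 55.4 (51.1 to 59.9) in neurons, 48.9 (39.2 to 60.3) in neural tube and 31.1 (23.5 to 40.5) UPM in endothelial cells. Neural tube, neuron and muscle at E9.5 were not apart, nor were neuron and neural tube at E11.5. The endothelial level at E9.5 lay inside the interval of the 15.4 (10.7 to 21.6) UPM of red blood cells. In the core neurons Notch2 was 33.1 (22.8 to 46.5) UPM at E9.5 and 17.6 (14.0 to 21.8) UPM at E11.5, under the levels of the other 4 gates at the later stage.

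Notch3, a receptor best known from the smooth muscle of arteries, had its highest levels in the neural tube. At E9.5 its level was 21.7 (20.03 to 23.4) UPM in neural tube, 15.2 (13.8 to 16.7) in sclerotome, 13.8 (10.1 to 18.5) in neurons, 12.9 (10.7 to 15.5) in muscle and 8.86 (6.73 to 11.5) UPM in endothelial cells. At E11.5 it was 59.6 (48.8 to 72.1) UPM in neural tube and 54.2 (51.2 to 57.4) UPM in muscle, which were not apart, then 32.4 (29.7 to 35.3) in sclerotome, 22.4 (19.7 to 25.4) in neurons and 14.7 (9.61 to 21.6) UPM in endothelial cells. Sclerotome, neuron and muscle were not apart at E9.5. In core neurons Notch3 was 9.02 (4.13 to 17.1) UPM at E9.5 and 6.57 (4.46 to 9.32) UPM at E11.5, under the other 4 gates at the later stage. Muscle had thus moved from the fourth place to a level within the counting error of the neural tube.

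Notch4, known as an endothelial receptor, was highest in endothelial cells at both stages. They held 18.03 (14.9 to 21.6) UPM at E9.5 and 54.3 (44.0 to 66.4) UPM at E11.5. Neural tube cells followed with 7.35 (6.42 to 8.38) and 12.4 (7.75 to 18.7) UPM, and neurons with 5.83 (3.51 to 9.10) and 7.09 (5.61 to 8.84) UPM. Muscle and sclerotome held between 1.18 and 2.68 UPM and were not apart at either stage. The neural levels stood above the 0.454 (0.0115 to 2.53) and 0.817 (0.0989 to 2.95) UPM of red blood cells, and in core neurons the level was 8.02 (3.46 to 15.8) and 12.3 (9.33 to 15.9) UPM. Thinned to 5000 UMIs per cell, 3.48% of E9.5 neural tube cells kept a Notch4 UMI, 10.3% of endothelial and 0% of red blood cells. Without thinning these shares were 10.0%, 21.5% and 0.806%, at median depths of 12159, 14144 and 15674 UMIs.

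**Figure D1:**
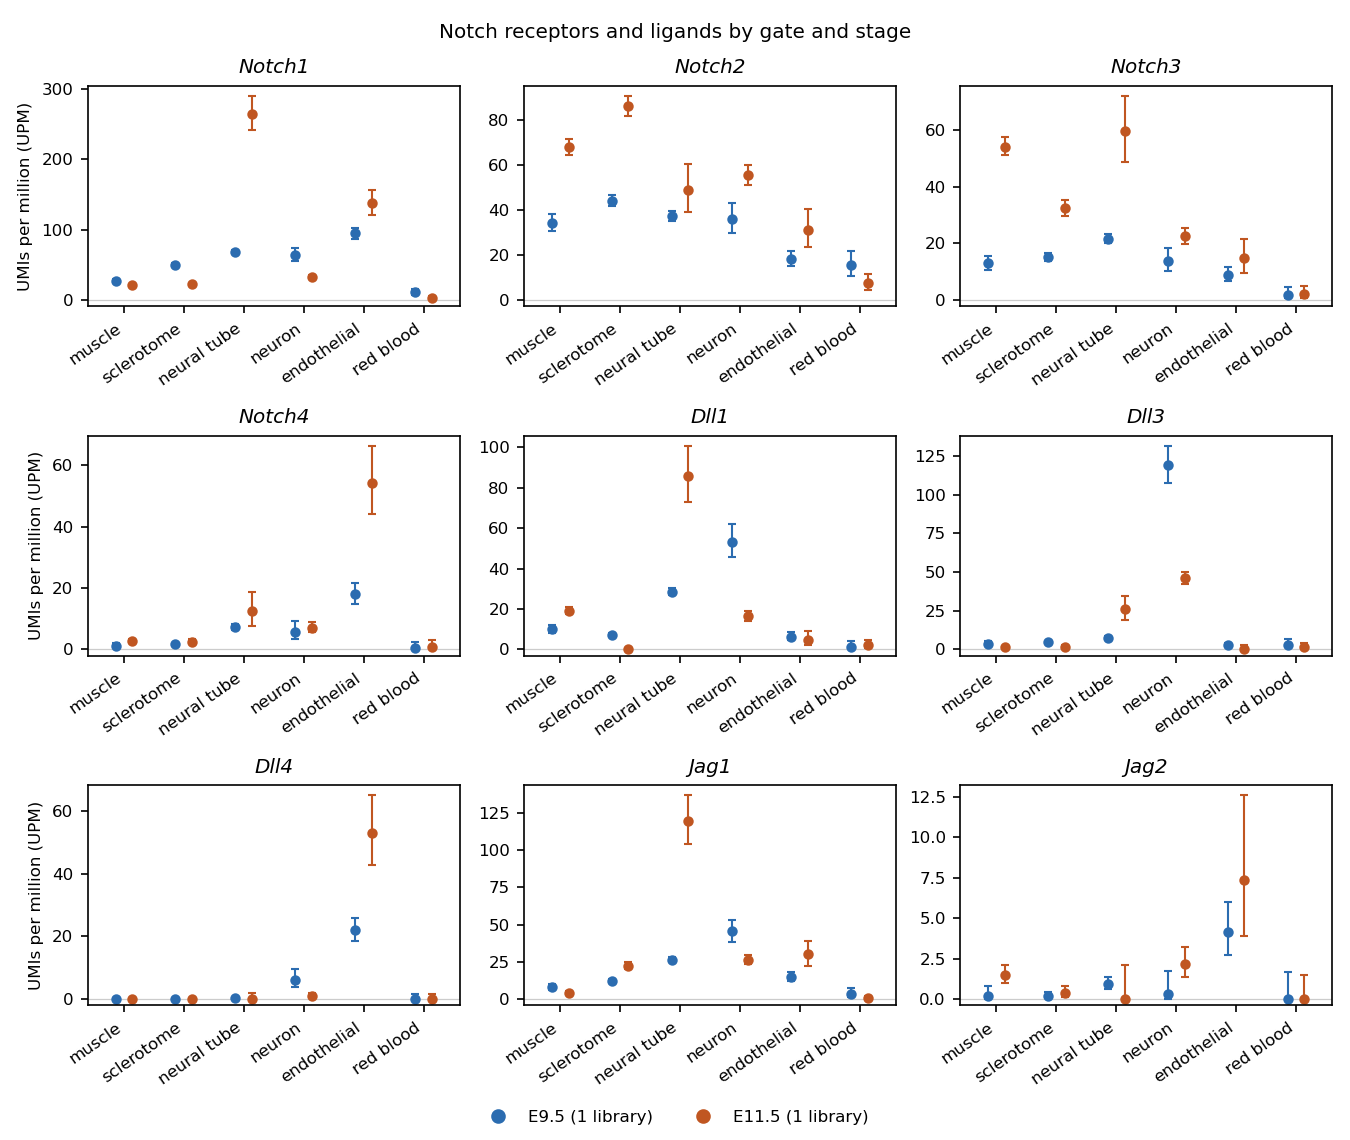
Level of each receptor and ligand in UMIs per 1000000 UMIs (UPM, linear axis, 1 panel per gene with its own scale) for the 5 gates and for red blood gated cells as a reference, with 1 point per library and exact 95% Poisson intervals as bars. Notch4 and Dll4 are highest in the endothelial gate at both stages, Dll3 in the neuron gate, and the E11.5 neural tube point exceeds the E9.5 point for Notch1, Notch3, Dll1, Dll3 and Jag1.

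Of the ligands, Dll1, the main Delta ligand of somites and spinal cord, was highest in neural cells among the 5 gates, while the E9.5 young somite cells held 107 (74.1 to 149.5) UPM. At E9.5 its level was 53.4 (45.7 to 61.9) UPM in neurons, 28.6 (26.7 to 30.6) in neural tube, 9.91 (7.99 to 12.2) in muscle, 7.26 (6.30 to 8.31) in sclerotome and 6.27 (4.496 to 8.50) UPM in endothelial cells, the last pair not apart. At E11.5 the neural tube held 86.0 (72.9 to 101) UPM, muscle 19.2 (17.4 to 21.1), neurons 16.3 (14.1 to 18.9), endothelial cells 4.53 (1.96 to 8.92) and sclerotome 0.250 (0.0682 to 0.641) UPM. Muscle and neuron were not apart there. In core neurons Dll1 was 30.1 (20.3 to 42.9) UPM at E9.5, within counting error of the neural tube, and 14.6 (11.4 to 18.5) UPM at E11.5. The E9.5 neuron gated cells with under 6 markers held 63.7 (53.7 to 75.0) UPM. The sclerotome value came from 4 UMIs in 1169 cells, under the 2.04 (0.663 to 4.77) UPM of red blood cells. Dll1 in E11.5 sclerotome thus did not exceed that reference, whose interval lies wholly above the sclerotome interval.

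Among the 5 gates, Dll3 was highest in neurons. The 23 cells with markers of the youngest somites at E9.5, which are in none of the 5 gates, held 217 (169 to 275) UPM, as much as the core neurons within counting error. The neuron gate held 119 (107 to 132) UPM at E9.5 and 46.0 (42.1 to 50.1) UPM at E11.5, and its core neurons 216 (188 to 246) and 78.8 (71.0 to 87.2) UPM. The neural tube followed with 7.45 (6.51 to 8.49) and 25.9 (18.9 to 34.5) UPM. Muscle held 3.66 (2.54 to 5.12) and 1.43 (0.972 to 2.03) UPM, sclerotome 4.85 (4.08 to 5.73) and 1.88 (1.27 to 2.68) and endothelial cells 2.60 (1.51 to 4.16) and 0.566 (0.0143 to 3.15) UPM. These levels overlap the 3.18 (1.28 to 6.54) and 1.63 (0.445 to 4.18) UPM of red blood cells at the same stage and were not told apart from that reference. At E9.5, 5 of the 7 Dll3 UMIs of red blood cells were in 1 cell. The sclerotome and muscle gates at E9.5 include a few cells with markers of young somites.

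Dll4, the Delta ligand of arteries, was highest in endothelial cells at both stages. They held 144 Dll4 UMIs at E9.5, 22.0 (18.6 to 25.9) UPM, and 94 at E11.5, 53.2 (43.0 to 65.1) UPM. Neurons had 20 and 12 UMIs, 6.14 (3.75 to 9.48) and 1.08 (0.557 to 1.88) UPM. Core neurons held 7.02 (2.82 to 14.5) and 1.91 (0.872 to 3.62) UPM. The neural tube had 10 and 0 UMIs, sclerotome 4 and 0, and muscle 0 and 2, where a count of 0 allows up to 0.323 UPM in E9.5 muscle, 1.69 in E11.5 neural tube and 0.188 UPM in E11.5 sclerotome. No Dll4 UMI was counted in red blood cells, which allows 1.36 and 1.23 UPM. The E9.5 neuron level stood above that limit.

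Jag1, a Jagged ligand of vessels and of the spinal cord, was highest in neurons at E9.5 and in the neural tube at E11.5. Its E9.5 level was 45.4 (38.4 to 53.3) UPM in neurons, 26.4 (24.6 to 28.3) in neural tube, 15.0 (12.2 to 18.3) in endothelial, 12.3 (11.1 to 13.7) in sclerotome and 8.08 (6.35 to 10.1) UPM in muscle cells, with endothelial and sclerotome not apart. At E11.5 it was 119.7 (104 to 137) UPM in neural tube, 30.001 (22.5 to 39.2) in endothelial cells, 26.3 (23.4 to 29.5) in neurons, 22.2 (19.9 to 24.6) in sclerotome and 4.15 (3.34 to 5.11) UPM in muscle. Endothelial cells and neurons were not apart at that stage. Core neurons held 54.1 (40.7 to 70.6) UPM of Jag1 at E9.5 and 19.9 (16.1 to 24.4) UPM at E11.5. Red blood cells held 3.63 (1.57 to 7.15) and 0.409 (0.0103 to 2.28) UPM.

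Jag2 had few UMIs in every gate. Endothelial cells held 27 and 13, 4.13 (2.72 to 6.00) and 7.36 (3.92 to 12.6) UPM, its highest level at either stage. In neurons 1 UMI was counted at the earlier and 24 at the later stage, in muscle 2 and 32. Core neurons held 0 and 23 of the neuron UMIs. The neural tube had 28 and 0, the latter allowing up to 1.69 UPM, and sclerotome 6 at each stage. Red blood cells had none at either stage.

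Between the stages, a gene counted as past 2-fold where the log2 ratio of its E11.5 over its E9.5 level was at least 1 in size and the 2 classes together held at least 100 of its UMIs. In muscle 5 of the 9 genes reached 100 UMIs and 1, Notch3, was past 2-fold and higher, where 17.9% of all genes were past 2-fold (13.6% higher, 4.32% lower). In sclerotome 6 reached it and 4 were past 2-fold, 1 higher and 3 lower, where 16.9% of all genes were (12.9% higher, 3.97% lower). In the neural tube 7 reached it and 5 were past 2-fold, all of them higher, where 16.9% of all genes were (11.2% higher, 5.63% lower). In neurons 6 reached it and 2 were past 2-fold, both lower, where 19% of all genes were (15.9% higher, 3.1% lower). In endothelial cells 5 reached it and 3 were past 2-fold, all higher, where 7.53% of all genes were (5.31% higher, 2.23% lower). The 1 of 5 in muscle is close to the share of all genes and is no result about these genes. The median log2 ratio of all genes that reached 100 UMIs was 0.03 in muscle, 0.17 in sclerotome, 0.13 in neural tube, 0.16 in neurons and 0.04 in endothelial cells. Relative to these medians 1, 3, 5, 3 and 2 genes were past 2-fold, with Notch3 left out in sclerotome, Notch1 added in neurons and Jag1 left out in endothelial cells.

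**Figure D2:**
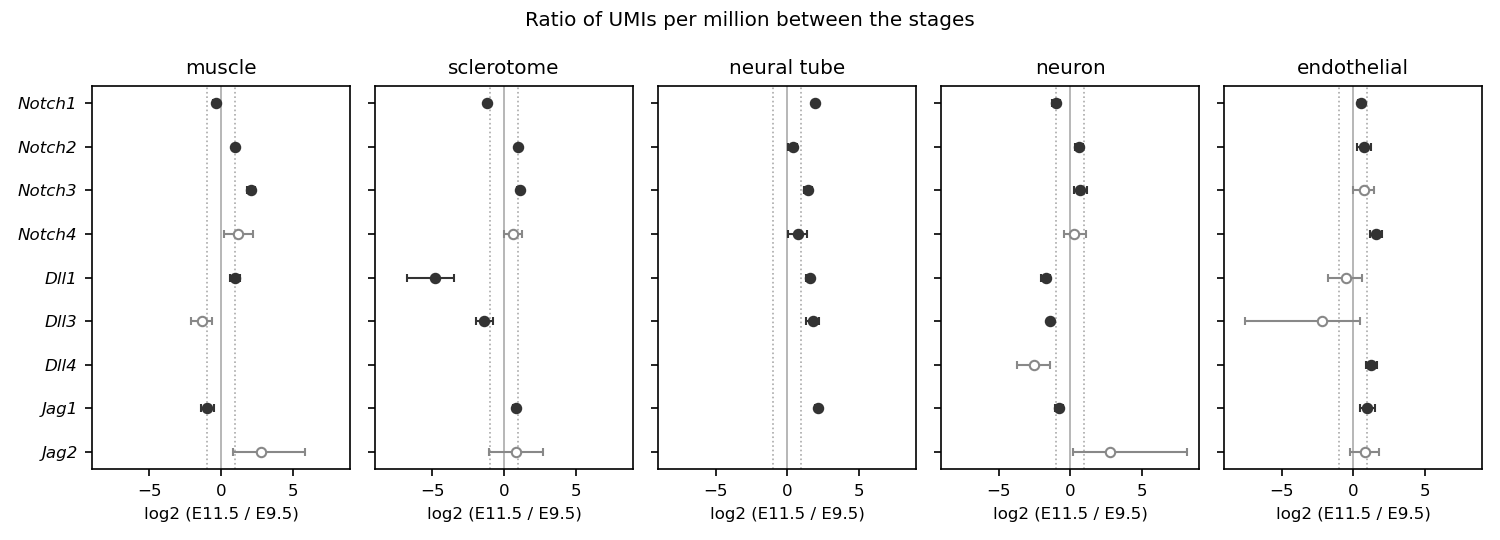
Log2 ratio of the E11.5 over the E9.5 level (UMIs per 1000000 UMIs) of each gene in each gate, with exact 95% intervals as bars, a line at 0 and dotted lines at 2-fold. Filled points had at least 100 UMIs in both classes together, open points had fewer, and genes with a count of 0 at a stage have no point. Notch3 lies to the right of 0 in all 5 gates, and Dll1 lies furthest to the left in sclerotome.

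In muscle, the receptors Notch2 and Notch3 and the ligand Dll1 were higher at E11.5, and Jag1 was lower. The log2 ratio was 2.07 (1.80 to 2.35) for Notch3 and 0.99 (0.81 to 1.17) for Notch2. It was 0.95 (0.63 to 1.30) for Dll1 and -0.96 (-1.42 to -0.50) for Jag1, so that Notch2, Dll1 and Jag1 lay just inside 2-fold. Notch1 had a ratio of -0.34 (-0.57 to -0.11), and 14 E9.5 cells of the gate with a UMI of a young somite marker (Tbx6, Ripply1, Ripply2, Cer1 or Msgn1) held 50 of its 246 UMIs. Without cells that had such a marker, the Notch1 ratio was -0.08 (-0.33 to 0.17), and Dll1, with 1.02, passed 2-fold. Notch4, Dll3 and Jag2 had fewer than 100 UMIs, with log2 ratios of 1.18, -1.36 and 2.78, the last from 2 against 32 UMIs.

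Within E11.5 muscle, Dll1 and Jag2 were highest in the cells furthest in differentiation. Cells were divided by UMIs of Pax3 or Pax7 alone (progenitor, 145 cells), of Myf5 without Myod1 and Myog (188 cells), of Myod1 with fewer than 3 of Myog (347 cells) and of at least 3 Myog UMIs (451 cells). The Dll1 level was 4.25 (1.94 to 8.07), 2.16 (0.867 to 4.45), 9.004 (6.80 to 11.7) and 39.4 (35.3 to 43.8) UPM in this order. Cells with Myog thus stood above the 3 other states, with a log2 ratio of 3.21 (2.27 to 4.35) over progenitors. Dll1 was the 1 of 4 genes with enough UMIs that was past 2-fold in this comparison, where 16% of all genes were. As a count, 1 of 4 is near that share and is no result about these genes as a set. The median depth was 13966 UMIs in progenitors and 17242 in cells with Myog.

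Jag2 and Dlk1 showed the same place of highest level, and Jag1 did not. Of 32 Jag2 UMIs in E11.5 muscle, 31 were in cells with Myog, 3.62 (2.46 to 5.14) UPM, while progenitors and Myod1 cells had none, which allows up to 1.42 and 0.482 UPM. That puts the level in Myog cells at 2.56-fold the limit for progenitors, a value that leaves out the counting error of the Myog level. Jag1 had 3.78 (1.63 to 7.45), 8.01 (5.23 to 11.7), 4.34 (2.86 to 6.32) and 2.69 (1.70 to 4.03) UPM in the 4 states. Dlk1, a non-canonical ligand, had 291 (268 to 315), 136 (124 to 149), 148 (138 to 157) and 480.05 (465 to 495) UPM.

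The receptors were spread more evenly over the states. Notch3 had 55.3 (45.7 to 66.2), 79.5 (70.1 to 89.8), 63.8 (57.7 to 70.4) and 35.3 (31.4 to 39.5) UPM, with a log2 ratio of -0.65 (-0.96 to -0.33) for Myog cells over progenitors. Its level in Myf5 cells stood above those of progenitors and of Myog cells, with intervals that do not overlap. Notch2 lay between 59.5 and 77.1 UPM and Notch1 between 15.0 and 24.0 UPM in the 4 states, with log2 ratios of 0.01 (-0.27 to 0.31) and 0.02 (-0.43 to 0.50) for Myog cells over progenitors. No receptor or ligand with enough UMIs reached 2-fold in Myod1 or Myf5 cells over progenitors, where 2.91% and 2.9% of all genes were past 2-fold. The same held at E9.5 for Myf5 and Myog cells over progenitors, where 0.26% and 6.95% of all genes were. Only 3 and 2 of the 9 genes had enough UMIs there, and Dll1 was in neither set.

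The higher Notch3 level at E11.5 was found inside single states as well. Between the stages its log2 ratio was 1.95 (1.49 to 2.42) in progenitors and 2.94 (2.48 to 3.43) in Myf5 cells, and for Notch2 1.18 (0.80 to 1.56) and 0.89 (0.60 to 1.17). Dll1 was lower at E11.5 in Myf5 cells, with a log2 ratio of -2.26 (-3.66 to -1.10). In progenitors its ratio was -1.07 (-2.30 to 0.0049), with an interval that includes 0, while the whole gate, with 20 cells in the Myog state at E9.5 and 451 at E11.5, had a ratio above 0. Those 20 E9.5 Myog cells held 8 Dll1 UMIs, 18.3 (7.92 to 36.1) UPM, under the 39.4 (35.3 to 43.8) UPM of E11.5 Myog cells with intervals that just overlap.

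**Figure D3:**
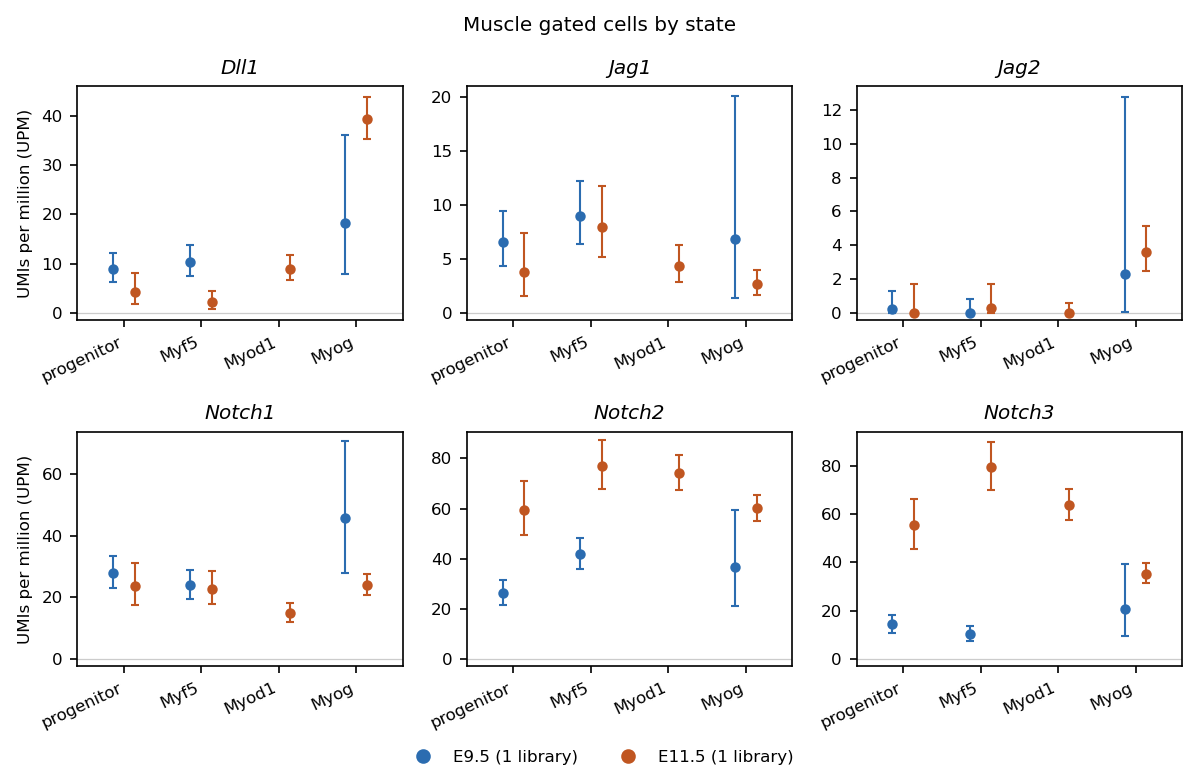
Level in UPM (linear axis) of 3 ligands and 3 receptors in the states of the muscle gate, with 1 point per library and exact 95% Poisson intervals; the Myod1 state had too few cells at E9.5 to be shown. At E11.5 Dll1 and Jag2 are highest in cells with at least 3 Myog UMIs, and Notch3 is highest in Myf5 cells.

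Of 39 other pathway genes, 32 reached 100 UMIs in muscle and 9 were past 2-fold, all higher at E11.5. The target genes among the 9 were Heyl (log2 ratio 3.74) and Hey1 (2.35), and Hes6, which opposes Hes1, had 3.10. Other targets did not move alike. Hes1 had 0.40, under 2-fold. Hes5, Hes7, Hey2 and Nrarp, with fewer than 100 UMIs each, had -1.77, -2.13, -3.76 and -0.74, with intervals under 0. The glycosyltransferase gene Lfng, which alters how receptors answer their ligands, had 3.16, the non-canonical ligand gene Dner 4.27 and the ubiquitin ligase genes Neurl1a, Dtx1 and Dtx4 2.41, 2.67 and 1.65. Psen2, a part of gamma-secretase, had 1.57. The median log2 ratio of the 32 was 0.44, and the 9 of 32 stand beside a background of 17.9% of all genes.

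In sclerotome, the precursor of vertebrae and ribs, Notch1, Dll1 and Dll3 were lower at E11.5 and Notch3 was higher. Dll1 went from 208 UMIs to 4, a log2 ratio of -4.86 (-6.75 to -3.48). The ratio was -1.16 (-1.33 to -0.99) for Notch1, 1.10 (0.91 to 1.28) for Notch3 and 0.97 (0.86 to 1.08) for Notch2. Jag1 was higher by 0.84 (0.63 to 1.06), and Dll3, at the level of red blood cells at both stages, had -1.37 (-1.99 to -0.79). Cells with a young somite marker made up 3.69% of the E9.5 gate and held 22 of its Dll1, 25 of its Dll3 and 91 of its Notch1 UMIs. Without them the ratios were -4.75 for Dll1, -1.14 for Dll3 and -1.13 for Notch1. The Dll3 ratio was under 2-fold with clusters in place of gates (-0.45) and with thinned cells (-0.85). Notch4, Dll4 and Jag2 had fewer than 100 UMIs, with 87, 4 and 12 over both stages.

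Sclerotome cells were also divided by Uncx, a gene of the posterior somite, and Tbx18, a gene of the anterior somite. At E9.5, 357 cells with Uncx alone held 19.3 (15.9 to 23.2) UPM of Dll1, 453 cells with Tbx18 alone 2.76 (1.69 to 4.27) and 1031 cells with neither 4.87 (3.81 to 6.13) UPM. Dll1 was therefore higher in Uncx than in Tbx18 cells, by a log2 ratio of 2.81 (2.11 to 3.57). It was the 1 of 5 genes with enough UMIs past 2-fold in this comparison, where 0.446% of all genes were. Jag1 had 15.2 (12.3 to 18.7) UPM in Uncx and 8.70 (6.69 to 11.1) UPM in Tbx18 cells, a log2 ratio of 0.81 (0.33 to 1.30). For Notch1, Notch2 and Notch3 the log2 ratios were 0.17, 0.00068 and 0.36, each with an interval that includes 0.

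At E11.5 the order of Jag1 between these cells was the opposite. It had 13.7 (10.8 to 17.2) UPM in 366 Uncx cells, 29.6 (23.4 to 36.8) in 198 Tbx18 cells and 25.8 (22.3 to 29.8) UPM in cells with neither. The log2 ratio of Uncx over Tbx18 cells was -1.11 (-1.58 to -0.63), past 2-fold where 2.07% of all genes were. With cells thinned to 5000 UMIs this ratio was -0.57, under 2-fold. Notch1 had a ratio of -0.74 (-1.18 to -0.29), and Notch2 and Notch3 had ratios of -0.13 and -0.14, with intervals that include 0. Only 1 Dll1 UMI was counted in the Uncx cells and 0 in the Tbx18 cells.

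Of the 39 other pathway genes, 31 reached 100 UMIs in sclerotome, with a median log2 ratio of 0.29, and 4 were past 2-fold, where 16.9% of all genes were. The 4 of 31 is near that share and is no result about these genes as a set. The target genes Hes5 and Heyl were lower at E11.5, with log2 ratios of -3.31 and -1.33. Hes5 stood at 8.69 UPM in E9.5 and 0.877 UPM in E11.5 sclerotome, beside 261 and 780 UPM in the neural tube gate. No red blood level is given for Hes5, and how much of its sclerotome count came from free RNA or doublets was not tested. Numbl, which encodes a relative of the Notch inhibitor Numb, and Neurl1a were higher, with 1.19 and 1.21. Heyl was also the 1 pathway gene past 2-fold between Uncx and Tbx18 cells at E9.5, at 1.02.

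In the neural tube gate, 3 ligands and 2 receptors were past 2-fold and all were higher at E11.5. Jag1 had a log2 ratio of 2.18 (1.95 to 2.40), Dll3 of 1.80 (1.30 to 2.26) and Dll1 of 1.59 (1.33 to 1.84). Among receptors the ratio was 1.95 (1.81 to 2.10) for Notch1, 1.46 (1.15 to 1.76) for Notch3, 0.75 (0.05 to 1.38) for Notch4 and 0.39 (0.06 to 0.71) for Notch2. The makeup of the gate, with fewer ventral cells at E11.5, and its summed marker level, at E11.5 mostly Fabp7, moved with these ratios. So did the neuron markers in this gate, with a summed level of 143 UPM at E9.5 and 483 UPM at E11.5. The part of each of these in the ratios was not tested. Among the 43 E11.5 and 1052 E9.5 cells with at most 1 marker of any other list, the Notch1 ratio was 2.28 and the Jag1 ratio 1.59. The Dll1 ratio there was 0.92, under 2-fold, the Notch2 ratio was 1.48, over it, and Dll3 had 1 UMI at E11.5 against 29 at E9.5. That filter takes out cells with 2 or more neuron markers, or 2 or more of the muscle list, which holds Pax3 and Pax7. The 169 E11.5 cells of the gate had a median of 2 neuron markers and 1 muscle marker. The filter thus also changes which kinds of cell are counted, and its part in these ratios was not tested.

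Within the dorsal Pax7 domain alone (97 and 29 cells), Notch1 and Notch3 also differed between the stages. Notch1 had 40.2 (31.5 to 50.6) UPM there at E9.5 and 226 (181 to 279) UPM at E11.5, a log2 ratio of 2.49 (2.02 to 2.96). For Notch3 the levels were 18.2 (12.5 to 25.5) and 57.2 (35.8 to 86.5) UPM, a ratio of 1.65 (0.80 to 2.47). Dll1 was higher at E11.5 there, with 2.10 (1.35 to 2.85), while Jag1 went against the whole gate, from 41 UMIs at E9.5 to 1 at E11.5, a ratio of -3.12 (-8.46 to -0.56). The Notch2 ratio was -0.88 (-2.39 to 0.34). In the middle domain, 183 and 12 cells with a UMI of Dbx1, the Notch1 ratio was 2.67 (2.11 to 3.20), the Dll1 ratio 4.86 (4.15 to 5.57) and the Jag1 ratio 1.05 (-0.62 to 2.34).

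Among the Pax7, Dbx1 and Nkx6-1 domains, Dll1 and Jag1 were highest in different ones at E11.5. The whole gate of 169 cells held 153 Dll1 and 213 Jag1 UMIs, and cells outside these domains were not ranked. Cells with Foxa2 (6 cells) or Nkx2-2 (7 cells) were too few to compare at that stage. Pax7 cells held 80.5 (54.7 to 114) UPM of Dll1 from 31 UMIs and 1 UMI of Jag1. The 12 Dbx1 cells held 342 (239.6 to 474) UPM of Dll1 and 47.5 (15.4 to 111) UPM of Jag1. In 21 cells with Nkx6-1, a ventral gene, but no Olig2 or Nkx2-2, Dll1 was lower than in Dbx1 cells, at 37.0 (16.0 to 73.0) UPM, and Jag1 higher, at 213 (156 to 284) UPM. Each of these domains rests on under 30 cells at E11.5. At E9.5, with 97 to 610 cells per domain, Dll1 was lowest in Dbx1 cells at 11.8 (8.26 to 16.3) UPM and 39.9 (36.0 to 44.3) UPM in Olig2 cells, while Jag1 lay between 22.6 and 29.9 UPM in all 6 domains.

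Jag1, Dll3 and Dll1 were the ligands past 2-fold in the whole neural tube gate. Of these, only Jag1 was so among its cells with at most 1 marker of any other list. The promoters of all 9 genes were looked up for 1 form of the E-box, CAGCTG. This short motif, which proteins of the basic helix-loop-helix class bind, reads the same on both strands. It occurs in the 250 bases before the RefSeq transcription start in 3 of the 10 promoters of the 9 genes, those of Jag1, Dll3 and the upstream start of Dll1, and in 13% of 32851 mouse promoters. A window of 30 bases around each match is shown 5′ to 3′ on the strand of the gene (RefSeq, GRCm38.p6), with the motif in capitals.
Dll1: tgcattaccataCAGCTGagcgcacaaaga
Dll3: aaatataagactccggcatccagCAGCTGc
Jag1: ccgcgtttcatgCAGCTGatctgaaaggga
The windows lie on the minus strand at chr17:15377047-15377076 (Dll1), chr7:28301786-28301815 (Dll3) and chr2:137116585-137116614 (Jag1). By the GENCODE coordinates given above, the Dll3 and Jag1 windows lie inside the gene and not before it, since the annotations place these starts differently. The Dll1 window lies before the gene in both. The motif TGGGAA, searched on both strands, the core of the site that Rbpj binds, was in none of the 10 promoters and in 21.6% of all. A match is a match of letters and not a bound site. The E-box count of 3 of 10 rests on few promoters and is no result about these genes as a set. A link between the motif and the stage ratios was not tested.

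**Figure D4:**
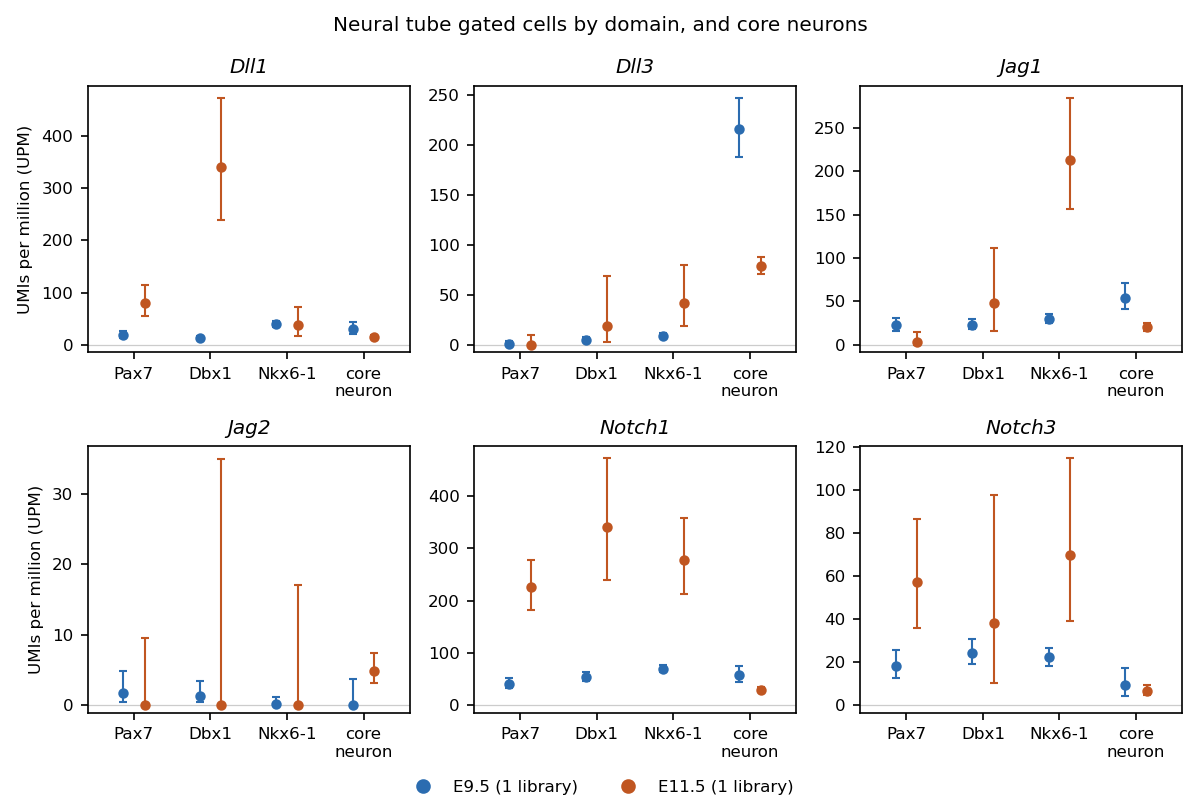
Level in UPM (linear axis) in neural tube gated cells of the Pax7, Dbx1 and Nkx6-1 domains and in core neurons, with 1 point per library and exact 95% Poisson intervals. Among the domains shown, Dll1 is highest in Dbx1 cells and Jag1 in Nkx6-1 cells at E11.5, and Dll3 is highest in core neurons at E9.5.

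Of the other pathway genes, 31 of 39 reached 100 UMIs in the neural tube, with a median log2 ratio of 0.58, and 11 were past 2-fold, where 16.9% of all genes were. The targets Hes5 (1.58), Nrarp (2.00), Hey1 (1.67) and Hes1 (1.12) and also Hes6 (2.23) were higher at E11.5 on the log2 scale. So were Maml2, a coactivator of Notch (1.98), Dlk1 (1.25), Numbl (1.36), Dtx3 (1.38) and Dtx4 (1.62). The target Hey2 was lower, at -1.82.

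In neurons, Dll1, Dll3 and Notch1 were lower at E11.5 in each choice of cells, and other ratios depended on which cells were counted. Over the whole gate the log2 ratio was -1.71 (-2.02 to -1.40) for Dll1, -1.37 (-1.57 to -1.18) for Dll3, -0.79 (-1.08 to -0.49) for Jag1 and -0.99 (-1.24 to -0.73) for Notch1. In core neurons these ratios were -1.04 (-1.68 to -0.37), -1.45 (-1.70 to -1.203), -1.44 (-1.94 to -0.93) and -0.98 (-1.43 to -0.51). All 8 have the same sign, and in core neurons Dll3 and Jag1 were the genes past 2-fold, since Dll1 had under 100 UMIs there. Core neurons were not alike at the 2 stages. They held 693 UPM of Stmn2 at E9.5 and 2789 UPM at E11.5, with 309 and 1957 UPM of Nefl and 1218 and 2530 UPM of Tubb3. The part of this difference in the ratios was not tested. Notch2 and Notch3 turned around, from 0.63 (0.34 to 0.92) and 0.70 (0.24 to 1.19) in the whole gate to -0.91 (-1.51 to -0.28) and -0.46 (-1.56 to 0.80) in core neurons. With clusters in place of gates, the ratios of Notch2, Notch3 and Jag1 were -0.38, -0.25 and 0.34, so that the sign of all 3 depended on the choice of cells. With a few more genes used for clustering, a choice added after seeing the data, the Jag1 ratio was -1.01.

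Core neurons had more Dll3 than the neural tube gate of the same library, and at E11.5 less of Notch1, Notch2, Notch3, Dll1 and Jag1. At E9.5, 7 genes had enough UMIs, of which 2 were past 2-fold and higher and 1, Notch3, was lower. Its level there was 9.02 (4.13 to 17.1) UPM in core neurons and 21.7 (20.03 to 23.4) UPM in the neural tube. The log2 ratio of core neurons over neural tube cells was 4.85 (4.58 to 5.13) for E9.5 Dll3 and 1.61 (1.16 to 2.08) for E11.5 Dll3. At E9.5, 13.1% of all genes were past 2-fold between these classes and at E11.5 23.3%. At E11.5 the ratio was -3.19 (-3.47 to -2.91) for Notch1, -3.18 (-3.81 to -2.59) for Notch3 and -1.48 (-1.93 to -1.03) for Notch2. Dll1 had -2.56 (-2.99 to -2.14) and Jag1 -2.59 (-2.95 to -2.23) at that stage, and at E9.5 Dll1 had 0.07 (-0.50 to 0.60) and Jag1 1.03 (0.61 to 1.43). For Notch4 the ratios were 0.13 (-1.10 to 1.13) and -0.01 (-0.74 to 0.77).

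A pair of kinds of neuron, told apart among core neurons by transcription factor genes, differed in Dll3 at E11.5. The 67 core neurons with Pax2, a gene of inhibitory interneurons, held 140.0 (113 to 172) UPM of Dll3, and the 30 with the motor neuron gene Mnx1 20.02 (8.64 to 39.5) UPM. At E9.5 the 19 with Mnx1 held 329.7 (255 to 419) UPM, so that the Dll3 intervals of Mnx1 neurons do not overlap between the stages. Jag1 stood at 7.51 (1.55 to 21.9) UPM in E11.5 Mnx1 neurons. For Pax2 the choice of cells decided the Jag1 level, which was 153 (126 to 184) UPM in all 77 Pax2 cells of the gate and 25.9 (15.1 to 41.4) UPM in the core. Of the 23 Jag2 UMIs of E11.5 core neurons, 7 were in Mnx1 cells, 17.5 (7.04 to 36.1) UPM.

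Of the other pathway genes, 29 of 39 reached 100 UMIs in the neuron gate, with a median log2 ratio of 0.25, and 7 were past 2-fold, where 19% of all genes were. The 7 of 29 is near that share and is no result about these genes as a set. Hes5 (-1.75), Nrarp (-1.69), Dtx4 (-1.50) and Mfng (-1.27) were lower at E11.5 on the log2 scale. Dner (4.30), Dlk1 (2.12) and Dtx3 (1.34) were higher. These ratios are for the whole gate and are not given for core neurons. At E11.5 the gate includes the 454 cells with fewer than 6 neuron markers, and their part in the ratios was not tested. Dlk1 stood at 464 UPM in the E11.5 neuron gate, beside 299 UPM in muscle and 223 UPM in sclerotome.

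In endothelial cells, the receptor Notch4 and the ligands Dll4 and Jag1 were past 2-fold and higher at E11.5. The log2 ratio was 1.59 (1.19 to 1.99) for Notch4, 1.27 (0.88 to 1.66) for Dll4 and 1.00 (0.49 to 1.50) for Jag1. It was 0.54 (0.32 to 0.76) for Notch1 and 0.79 (0.30 to 1.26) for Notch2. With cells thinned to 5000 UMIs only 1 of the 9 genes reached 100 UMIs and none was past 2-fold, and the Jag1 ratio was 0.73. Notch3, Dll1, Dll3 and Jag2 had under 100 UMIs, with ratios of 0.73 (0.0048 to 1.42), -0.47 (-1.77 to 0.64), -2.20 (-7.58 to 0.48) and 0.83 (-0.24 to 1.84). White blood markers in the gate had a summed level of 15.4 UPM at E9.5 and 134 UPM at E11.5, with 4 and 5 of the 5 markers found and Ptprc the one at 0 at E9.5, and their part in the ratios was not tested. Among pathway genes, 21 of 39 reached 100 UMIs, with a median log2 ratio of 0.22, and 4 were past 2-fold, all higher at E11.5 (Nrarp 1.53, Dlk1 1.48, Hey1 1.30 and Mfng 1.09), beside the 7.53% of all genes.

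Arterial cells held more Dll4, Notch4, Jag1 and Notch1 than venous cells. Arterial cells had UMIs of at least 2 of Gja5, Gja4, Efnb2, Sox17, Bmx and Unc5b and none of Nr2f2 and Aplnr, and venous cells had a UMI of Nr2f2 or Aplnr and none of the arterial genes. Nr2f2 was not particular to endothelial cells, which held 137 UPM at E9.5 and 175 UPM at E11.5. It stood at 213 UPM in E9.5 muscle and 262 UPM in E11.5 neurons. How many cells were placed in or kept out of a state by free RNA or doublets was not tested. The whole gate held 404 cells with 144 Dll4 UMIs at E9.5 and 103 cells with 94 at E11.5. Most of these cells and most of these UMIs were in neither state. At E9.5, 36 arterial cells held 31 Dll4 UMIs, 76.1 (51.7 to 108) UPM, and 66 venous cells 1, 1.05 (0.0266 to 5.85) UPM, a log2 ratio of 6.18 (3.59 to 11.53). Notch4 had 46.6 (28.1 to 72.8) and 7.35 (2.96 to 15.2) UPM, a ratio of 2.66 (1.35 to 4.16), and Jag1 24.5 (11.8 to 45.1) and 6.30 (2.31 to 13.7) UPM, a ratio of 1.96 (0.36 to 3.70). Notch1, the 1 gene with at least 100 UMIs in the 2 classes together, had 108 (78.5 to 145) and 63.0 (48.1 to 81.1) UPM, a ratio of 0.78 (0.18 to 1.36), where 9.63% of all genes were past 2-fold. The median depth was 8464 UMIs in arterial and 11139 in venous cells.

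At E11.5, 13 arterial cells held 29 Dll4 UMIs, 199.9 (134 to 287) UPM, and 15 venous cells none, which allows up to 22.9 UPM. Arterial cells held 124 (73.5 to 196) UPM of Jag1 and 138 (84.2 to 213) UPM of Notch4, and venous cells 15.2 (1.85 to 55.1) and 22.9 (4.72 to 66.8) UPM. For Notch1 the levels were 289 (209 to 391) and 61.0 (26.3 to 120.2) UPM. Arterial cells were thus the higher ones for all 4 genes at both stages, with intervals that do not overlap for Dll4, Jag1, Notch4 and Notch1 at E11.5.

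**Figure D5:**
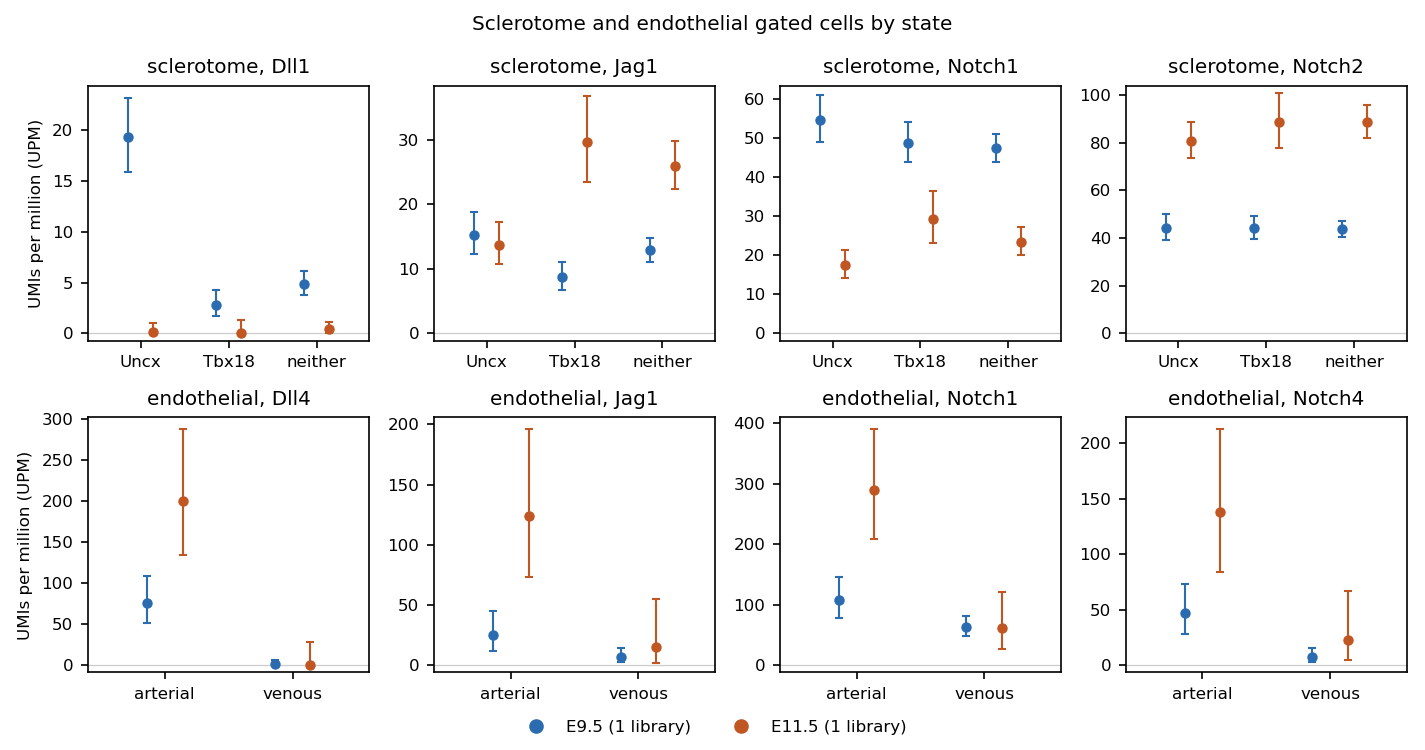
Level in UPM (linear axis) in sclerotome cells with Uncx, Tbx18 or neither (upper row) and in arterial and venous endothelial cells (lower row), with 1 point per library and exact 95% Poisson intervals. Dll1 is highest in Uncx cells at E9.5, and Dll4 and Notch4 are higher in arterial than in venous cells at both stages.

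Pairs of ligands and receptors, or of ligands, were also looked for in the same cell, after thinning each cell to 5000 UMIs and beside the product of the single shares. In the E9.5 neural tube, 100 of 2013 cells held both Dll1 and Notch1, against 65.3 by the product, and 66 held both Jag1 and Notch1 against 62.3. Dll1 and Jag1 were together in 27 cells against 28.7 at E9.5 and in 1 of 153 against 6.47 at E11.5. That joint share at E11.5, 0.654% with an exact binomial interval of 0.0165% to 3.59%, lies under the product of 4.23%.

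In E11.5 muscle, Dll1 and Notch3 were together in 14 of 1180 cells against 22.4 by the product, and Dll1 and Notch2 in 20 against 26.9. In neurons, Dll3 and Dll1 were together in 36 of 234 cells at E9.5, against 22.2, and in 18 of 748 at E11.5, against 6.50. In endothelial cells, Dll4 and Notch4 were together in 11 of 370 cells against 4.11 at E9.5. For these neuron and endothelial pairs the exact binomial interval of the joint share lay above the product. In E11.5 muscle the intervals, 0.650% to 1.98% with Notch3 and 1.04% to 2.61% with Notch2, include the products of 1.90% and 2.28%. The intervals of endothelial Dll4 with Notch1 at both stages, and with Notch4 at E11.5, also include the product. This is a description of sparse counts in gates that mix states, with no test.

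Over the 10 classes of 5 gates by 2 stages, the genes whose log2(UPM + 1) was most like that of each member were listed among 11845 genes, as a description that rests on 10 points from 2 libraries. For Notch1 the first was its target Nrarp (Pearson r = 0.95). For Dll4 they were Cd9, the endothelial transcription factor gene Sox18 and Cyyr1, with r of 0.97, 0.96 and 0.96. For Dll3 they were Sstr2, Insm1, a gene of newborn neurons, and BC031181, with 0.96, 0.96 and 0.95. Zbtb18 led for Dll1 (0.94), 2310009B15Rik for Jag1 (0.97), Nelfcd for Notch2 (0.96), Trpt1 for Notch3 (0.96) and Slc35g2 for Notch4 (0.97). Jag2 had too few UMIs for this comparison. Between 3 and 130 genes reached r of 0.9 with a member.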

How the data were processed

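The deposited files hold raw UMI counts per gene and barcode, which the authors made with Cell Ranger 3.0.1 against the mm10 reference, with no normalisation. Their barcode lists are those that Cell Ranger called as cells, 10121 at E9.5 and 10167 at E11.5. Cells with at least 200 and fewer than 6500 genes and under 15% mitochondrial UMIs were kept (270 and 572 removed). A cell was gated to the marker list of which it had the highest share. At least 3 markers were asked for in neural tube, neuron, endothelial and red blood, and at least 2 in all other lists. States within gates were set by UMIs of named genes. Some states planned for the neural tube and neurons are not reported here. The Notch genes, marker lists and states were chosen with earlier results of these data known. The neuron core of 6 or more markers, the removal of cells with young somite markers and clusters of another gene set were added after seeing the data.

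UMIs were summed per class and divided by the class total. Intervals are exact Poisson intervals for levels, exact intervals of the ratio of a pair of Poisson counts for ratios and Clopper-Pearson intervals for shares, and a count of 0 allows up to 3 counts. The ratio code was tested on simulated data. Scrublet, run on kept cells with an expected rate of 0.08, called 659 E9.5 and 360 E11.5 cells doublets, which were kept and left out as an alternative. Other alternatives were stricter gates, clusters, at least 1000 genes, thinning to 5000 UMIs, means over cells and centring on the median ratio. Of the other pathway genes, those past 2-fold between the stages in a gate are named. Python 3.11.15, numpy 2.4.6, scipy 1.17.1, pandas 2.3.3, scanpy 1.11.5 and matplotlib 3.10.9 were used.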

Additional observations from a re-analysis of the deposited data

Results flagged for a closer look

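For 3 genes the stage ratio was past 2-fold in opposite directions in different gates of the same libraries. The log2 ratio of E11.5 over E9.5 for Notch1 was 1.95 (1.81 to 2.10) in the neural tube and -1.16 (-1.33 to -0.99) in sclerotome. For Dll1 it was 1.59 (1.33 to 1.84) in the neural tube, -4.86 (-6.75 to -3.48) in sclerotome and -1.71 (-2.02 to -1.40) in neurons. For Dll3 it was 1.80 (1.30 to 2.26) in the neural tube, -1.37 (-1.99 to -0.79) in sclerotome, where both levels overlap those of red blood cells, and -1.37 (-1.57 to -1.18) in neurons. Among neural tube cells with at most 1 marker of any other list, the Dll1 ratio was 0.92, under 2-fold. Dll3 had 1 UMI at E11.5 there and a ratio of 0.30 (-5.05 to 2.90), so that of the 3 genes only Notch1 was past 2-fold. That filter also takes out cells with more than 1 neuron or muscle marker, and its part in these ratios was not tested. With 1 library per stage the differences between gates were not tested.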

How the results depend on the processing

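No paired analysis was possible because each stage has 1 library, and for the same reason no replicate could be left out. Of 41 recounts of the genes past 2-fold between stages, 34 stayed within 1.5 times the reported count. In muscle the count of 1 became 3 in the strict gate, 2 with means over cells and 2 without cells that had young somite markers. In sclerotome 4 became 2 with cells thinned to 5000 UMIs. In neurons 2 became 1 in the strict gate and 4 with clusters of another gene set, which left only the Notch genes and the genes of the states reported out of clustering, and in endothelial cells 3 became 0 with thinned cells, where 1 gene reached 100 UMIs. No stage or state ratio past 2-fold changed sign, while ratios under 2-fold of Notch2, Notch3 and Jag1 did in neurons and so did some state ratios whose intervals include 0. Of 239 stage ratios under the alternatives 191 stayed inside the interval of the reported ratio, and of 148 state ratios 134 did. The stage ratios that left it were uneven over the alternatives. With clusters 11 left it and 13 stayed, and with clusters of another gene set 13 left it and 11 stayed. In the strict gate 10 left it and 19 stayed, and in core neurons 4 left it and 2 stayed. All 29 stayed without Scrublet calls, and all 29 with at least 1000 genes. Of 666 levels, 496 were counted as unchanged and 170 as moved, among them 37 with clusters, 34 with thinned cells and 12 with core neurons. Joint shares were counted as moved in 20 of 40, all 20 of them in unthinned cells. With clusters of another gene set the neural tube ratio of Dll3 was 4.88 on the log2 scale. Clusters gave no value for muscle, since no E9.5 cluster had at least 50% of its cells in the muscle gate. Depth limits Jag2, Dll4 outside endothelial cells, and every class of under 30 cells.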

Other observations

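At E9.5, 23 cells were gated by markers of the youngest somites and presomitic mesoderm (Tbx6, Ripply1, Ripply2, Cer1 and Msgn1), where Notch signalling is known to drive the segmentation clock, and none were at E11.5. Of these cells, 16 had no more than the 2 markers asked for. The 23 cells held 516 (440.1 to 601) UPM of Notch1, 110.1 (76.7 to 153) UPM of Notch2 and 31.5 (15.1 to 57.9) UPM of Notch3. Among ligands they held 217 (169 to 275) UPM of Dll3, 107 (74.1 to 149.5) UPM of Dll1 and 25.2 (10.9 to 49.6) UPM of Jag1. No UMI of Notch4, Dll4 or Jag2 was counted in them, which allows up to 9.44 UPM. The Notch1 level stood above those of all 5 E9.5 gates. The 69 sclerotome gated E9.5 cells with a young somite marker held 18.1 (11.7 to 26.7) UPM of Dll3, against 4.85 (4.08 to 5.73) UPM in the whole gate.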
